A study of Mus musculus with 10 samples.

Results

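The stretch of mouse chromosome 6 from 120 to 130 Mb (build mm9) was examined in 4 deposited ChIP-seq peak lists of pre-iPSCs, without the Nanog locus at 122.5 to 122.75 Mb. Its members are the peaks that start in this stretch, 1254 of 110170 peaks in all. From the Nanog + Sin3a line they comprised 289 of 18231 Sin3a peaks and 384 of 36286 FLAG peaks. The others were 140 of 17168 Sin3a peaks of the Sin3a line and 441 of 38485 FLAG peaks of the Nanog line. The stretch was chosen by these peak numbers, since that of Sin3a peaks differed between lines while that of FLAG peaks differed little, so these counts, and everything else drawn from the same lists between lines, are descriptions and were not tested.

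The cells are pre-iPSCs, partly reprogrammed cells derived here from female neural stem cells of strain 129/MF1, grown in serum with LIF, and all groups carry an Oct4-GFP-IRES-puro reporter. Transgenes were introduced with PiggyBac transposon vectors under the CAG promoter, and stable lines were selected with hygromycin and/or blasticidin S. The Nanog + Sin3a line carries Nanog (FLAG) together with Sin3a, the Sin3a line carries Sin3a + EV, and the Nanog line carries Nanog (FLAG) + EV, in the wording of the labels. Sin3a was precipitated in the Nanog + Sin3a and Sin3a lines and FLAG in the Nanog + Sin3a and Nanog lines, with 2 replicates in each of these 4 groups. The replicates of a group share 1 list, in which no peak has a value for each replicate, so the replicate error of these differences is unknown. The labels do not say whether replicates came from separate cultures. Intervals are given at 95% and hold for counting error alone, because neighbouring peaks share their libraries.

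Nanog is a homeodomain transcription factor of the core pluripotency network that binds DNA directly. Sin3a does not bind DNA by itself. It is the scaffold of a co-repressor complex that carries the histone deacetylases Hdac1 and Hdac2 and is brought to chromatin by DNA-binding factors. Distal chromosome 6 is known in stem cell biology for the cluster in which Nanog lies next to Dppa3, an oocyte and germ cell factor, Gdf3, a TGF-beta family ligand, and Slc2a3, a glucose transporter. In the gene order of the later build GRCm38, Kdm5a, a histone demethylase gene, lies on one side of this cluster. On the other side follow Chd4, the remodeller of the NuRD co-repressor complex, Gapdh, Cd9, Ccnd2, Tead4 and Foxm1, and then lectin receptor genes of the natural killer gene complex such as Klrb1c, Clec2d and Klrd1. This order gives names only. The gene table is of another build than the peaks, so no peak was assigned to a gene.

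Sin3a peaks numbered 289 in the Nanog + Sin3a line (Poisson interval 257 to 324) and 140 in the Sin3a line (118 to 165), a ratio of 2.06 (1.68 to 2.54). In the rest of the genome the ratio was 1.05. FLAG peaks numbered 384 in the Nanog + Sin3a line (347 to 424) and 441 in the Nanog line (401 to 484), a ratio of 0.871 (0.757 to 1.00), beside 0.944 in the rest of the genome. The Sin3a list with more peaks here was the one with fewer ChIP tags per control tag, 1.30 in the Nanog + Sin3a line and 1.43 in the Sin3a line, as recovered from the deposited values. The part of this difference in the counts was not tested. In the Nanog locus left out of the stretch, Sin3a peaks numbered 8 in the Nanog + Sin3a line and 6 in the Sin3a line, and FLAG peaks 18 in the Nanog + Sin3a line and 19 in the Nanog line.

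The stretch was dense in peaks of both proteins. With 39.4 FLAG peaks per Mb in the Nanog + Sin3a line and 45.2 in the Nanog line, it ranked 1 and 3 among 255 full 10-Mb windows of the genome, whose median was 12.3 in both lines. With 29.6 Sin3a peaks per Mb it also ranked 1 in the Nanog + Sin3a line, whereas 14.4 per Mb gave it rank 27 in the Sin3a line, beside medians of 5.10 in the Nanog + Sin3a line and 4.8 in the Sin3a line. Sin3a peaks were thus few relative to FLAG peaks across the single-transgene lines, at 0.317 Sin3a peaks per FLAG peak (rank 218 of 251 windows, median 0.421). In the Nanog + Sin3a line they were many, at 0.753 per FLAG peak (rank 7, median 0.427). Among 233 windows with at least 20 Sin3a peaks in both lists together, the ratio of Sin3a peaks between lines ranked 2, and 90% of windows lay between 0.784 and 1.31. The ratio of FLAG peaks ranked 205 of 251.

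**Figure D1:**
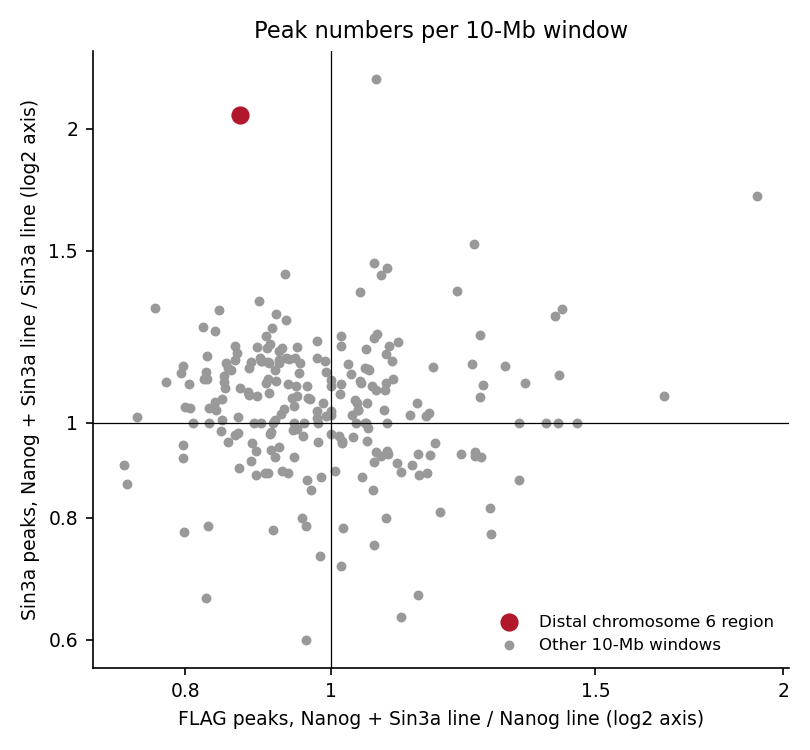
Ratio of Sin3a peak numbers (y axis, Nanog + Sin3a line over Sin3a line) against the ratio of FLAG peak numbers (x axis, Nanog + Sin3a line over Nanog line) for 10-Mb windows with at least 20 peaks of each antibody in both lists together, on log axes. The large point is distal chromosome 6, at 2.06 for Sin3a and 0.871 for FLAG, and each small point is another window.

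Peaks were spread unevenly along the stretch, and 7 of 39 windows of 250 kb held no peak of any list. The share of such empty windows in the genome was not computed, so this unevenness is not said to be unusual. Of the 10 windows of 1 Mb, 8 had at least 10 Sin3a peaks in both lists together, and 5 of these held at least 1.5 times as many Sin3a peaks in the Nanog + Sin3a line, against 7.98% of 1053 such windows of the genome. No window had 1.5 times fewer, against a background of 5.03%. For FLAG, 0 of 9 windows were at least 1.5-fold higher (background 8.37%) or lower (background 4.96%) in the Nanog + Sin3a line. These counts of peaks have no replicates and carry no test. Of 26 windows of 250 kb with a Sin3a peak, Sin3a peaks were more numerous in the Nanog + Sin3a line in 21 (background 34.6% of 4531 such windows) and in the Sin3a line in 1 (background 25.2%). Of 31 windows with a FLAG peak, FLAG peaks were more numerous in the Nanog + Sin3a line in 8 (background 35.7% of 6622) and in the Nanog line in 18 (background 37.8%).

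The ratio of Sin3a peaks was highest in the window at the distal end. Between 120 and 121 Mb there were 23 Sin3a peaks in the Nanog + Sin3a line and 17 in the Sin3a line, and between 125 and 126 Mb the Nanog + Sin3a line had 52 and the Sin3a line 39. From 127 to 128 Mb the Nanog + Sin3a line had 32 and the Sin3a line 12. From 128 to 129 Mb the Nanog + Sin3a line had 72 and the Sin3a line 26. From 129 to 130 Mb the Nanog + Sin3a line had 36 Sin3a peaks and the Sin3a line 3, a ratio of 12 with an interval of 3.79 to 60.9. FLAG peaks in these last 3 windows numbered 35, 86 and 40 in the Nanog + Sin3a line and 40, 105 and 38 in the Nanog line. The last 3 windows, a split chosen after the values were seen, held 140 Sin3a peaks in the Nanog + Sin3a line and 41 in the Sin3a line (ratio 3.41, interval 2.40 to 4.96). The first 7 windows held 149 in the Nanog + Sin3a line and 99 in the Sin3a line (ratio 1.51, interval 1.16 to 1.96). The FLAG ratio was 0.880 in the last 3 windows and 0.864 in the first 7.

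**Figure D2:**
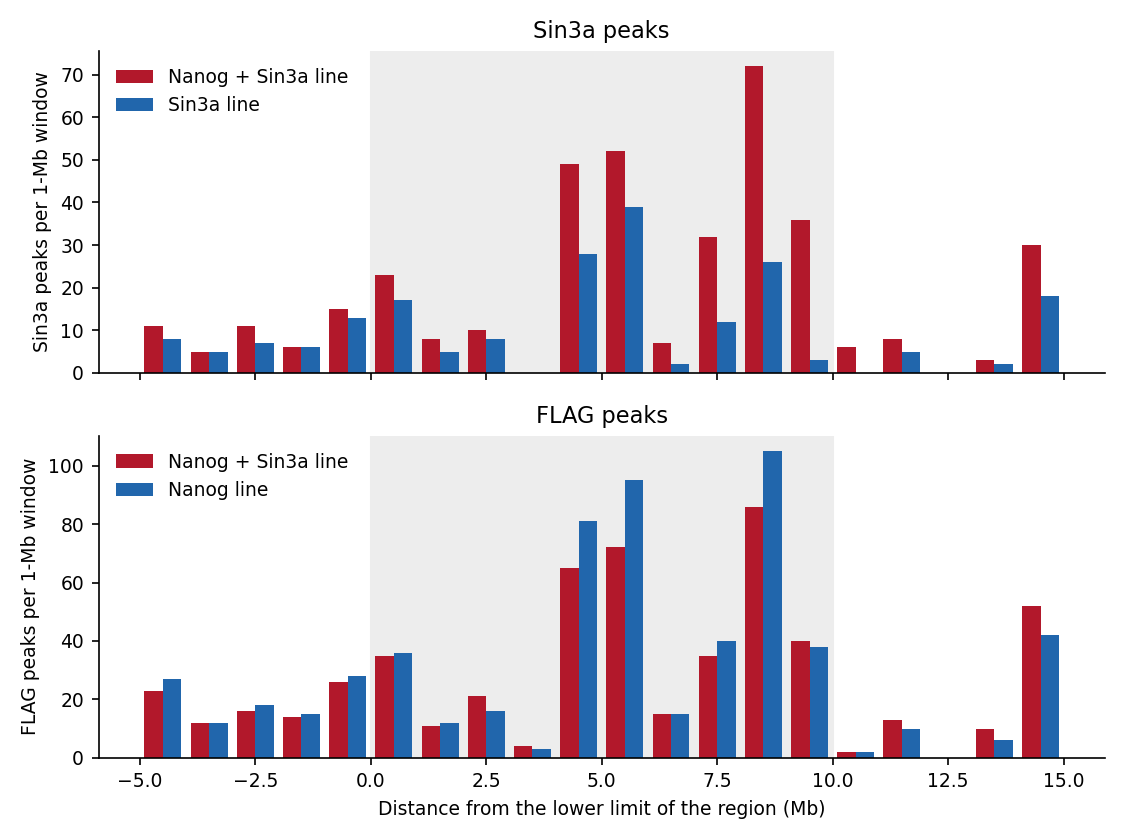
Peaks per 1-Mb window by distance from the lower limit of the stretch, for Sin3a (top) and FLAG (bottom), with the Nanog + Sin3a line left of the single-transgene line in each pair of bars. The shaded 10 Mb are the stretch without the Nanog locus. Sin3a bars of the Nanog + Sin3a line stand above those of the Sin3a line in each window of the stretch that holds Sin3a peaks, with 72 in the Nanog + Sin3a line and 26 in the Sin3a line at 128 Mb, while FLAG ratios lie between 0.758 and 1.33.

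At the limits of the stretch the numbers were small. The window below it, 119 to 120 Mb, held 15 Sin3a peaks in the Nanog + Sin3a line and 13 in the Sin3a line. The window above it, 130 to 131 Mb, held 6 in the Nanog + Sin3a line and 0 in the Sin3a line. Farther out, between 134 and 135 Mb, the Nanog + Sin3a line had 30 Sin3a peaks and the Sin3a line 18. FLAG peaks there numbered 52 in the Nanog + Sin3a line and 42 in the Nanog line. The 10-Mb window that starts at 130 Mb held 86 Sin3a peaks in the Nanog + Sin3a line and 59 in the Sin3a line. This ratio of 1.46 lay above 1.31, the upper bound given above for windows of the genome. The FLAG ratio of the same window was 1.07. The 10-Mb window that starts at 110 Mb had a Sin3a ratio of 1.16, below that bound. Higher Sin3a numbers in the Nanog + Sin3a line thus did not end at 130 Mb. The last Sin3a peak inside the upper limit, at 129509332-129509746 in the Nanog + Sin3a line, had a fold of 4.25, and the first outside, at 130244162-130244398, a fold of 4.10. At the lower limit of the same list the first Sin3a peak inside, at 120095516-120095754, had a fold of 4.63, and the last outside, at 119989543-119990089, a fold of 4.77. Here and below, fold is the authors' enrichment of the ChIP pileup over the expected background at the summit, a value of each list's own scale.

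Sin3a peaks that the stretch held in the Nanog + Sin3a line lacked a counterpart in the Sin3a line more often than those elsewhere. Of 289 peaks, 167 shared no base with a Sin3a peak of the Sin3a line, 57.8%, beside a background of 19.6% over the whole list. Whether this is a majority depends on the rule. Peaks with a counterpart made up 42.2% by shared bases (rest of the genome 81.0%), but 56.4% when peaks within 1 kb counted (88.0%) and 60.4% among peaks with a −log10 q, the authors' adjusted p-value of the summit, of at least 5 (89.9%). These 167 peaks are called unmatched below. In the other direction, 8 of the 140 peaks found in the Sin3a line were without a counterpart in the other Sin3a list, 5.71%, beside a background of 15.8%. Of these 140 peaks, 94.3% thus had a counterpart by shared bases, and 76.4% had one with summits within 200 bp, beside 84.2% and 72.1% in the rest of the genome. A peak missing from a list does not show that the protein was absent there. FLAG peaks without a counterpart were 62 of 384 in the Nanog + Sin3a line, 16.1% with a background of 20.3%, and 114 of 441 in the Nanog line, 25.9% with a background of 25.8%. The FLAG shares lay near or below those of the whole lists.

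Many unmatched Sin3a peaks lay where FLAG-Nanog peaks had been called, as did those elsewhere. In the same line 113 of the 167 overlapped a FLAG peak (67.7%, interval 60.2 to 74.3%). The share for unmatched peaks in the rest of the genome, 58.6%, lay below this interval. With summits within 200 bp the share was 49.1%, beside 45.8%. In the Nanog line, which carries no Sin3a transgene by its label, FLAG peaks lay at 120 of them (71.9%, 64.6 to 78.1%), and the interval includes the 68.2% of the rest of the genome. At least 1 of the FLAG lists had a peak at 132 of them (79.0%, 72.3 to 84.5%). Among unmatched Sin3a peaks of the rest of the genome this share was 73.7% (72.2 to 75.2%), so the interval of the stretch includes it. Of the 122 matched Sin3a peaks of the stretch, 115 lay at FLAG in the Nanog + Sin3a line (94.3%, 88.6 to 97.2%), beside 85.5% in the rest of the genome. At FLAG in the Nanog line lay 121 (99.2%, 95.5 to 99.9%), beside 91.9%. The intervals of matched peaks thus lay above the shares of the rest of the genome. A shared base is more likely where FLAG peaks are dense and peaks are wide. In FLAG peaks per Mb the stretch ranked 1 and 3 among 255 windows. Its Sin3a peaks were wider than elsewhere, with medians of 306 and 260 bp for unmatched and 751.5 and 563 bp for matched peaks. The part of density and width in these shares was not tested. The lists come from separate precipitations, so binding of both proteins to the same molecule was not measured. At unmatched peaks the Sin3a and FLAG summits of the Nanog + Sin3a line lay a median of 96 bp apart, and at matched peaks 76 bp.

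Across the single-transgene lines, Sin3a peaks lay at a smaller share of FLAG peaks here than elsewhere, and in the Nanog + Sin3a line at a larger share. The stretch was chosen by its numbers of Sin3a and FLAG peaks, so this difference between lines follows in part from the choice. Of the 384 FLAG peaks called in the Nanog + Sin3a line, 227 shared bases with Sin3a in that line, 59.1% (54.1 to 63.9%) beside 42.0% in the rest of the genome. For the single-transgene lines, 136 of the 441 FLAG peaks in the Nanog line shared bases with Sin3a in the Sin3a line, 30.8% (26.7 to 35.3%) beside 41.9%. FLAG peaks with Sin3a in the Nanog + Sin3a line only made up 28.6% of the FLAG list of that line, beside 5.51% in the rest of the genome. FLAG peaks with Sin3a in the Sin3a line only were 1.04%, beside 4.50%, and those with no Sin3a were 39.8%, beside 53.5%.

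Windows with at least 35 FLAG peaks in each list were compared in the same way. Within the Nanog + Sin3a line, 21 of 35 FLAG peaks lay at Sin3a at 120 to 121 Mb, 41 of 65 at 124 to 125 Mb, 46 of 72 at 125 to 126 Mb, 19 of 35 at 127 to 128 Mb, 58 of 86 at 128 to 129 Mb and 23 of 40 at 129 to 130 Mb. For the single-transgene lines the numbers in the same windows were 17 of 36, 28 of 81, 38 of 95, 10 of 40, 23 of 105 and 3 of 38. The shares lay between 54.3% and 67.4% in the Nanog + Sin3a line in all 6 windows. Across the single-transgene lines they were lower in the last 3 windows, at most 25%, than in the first 3, from 34.6% to 47.2%.

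**Figure D3:**
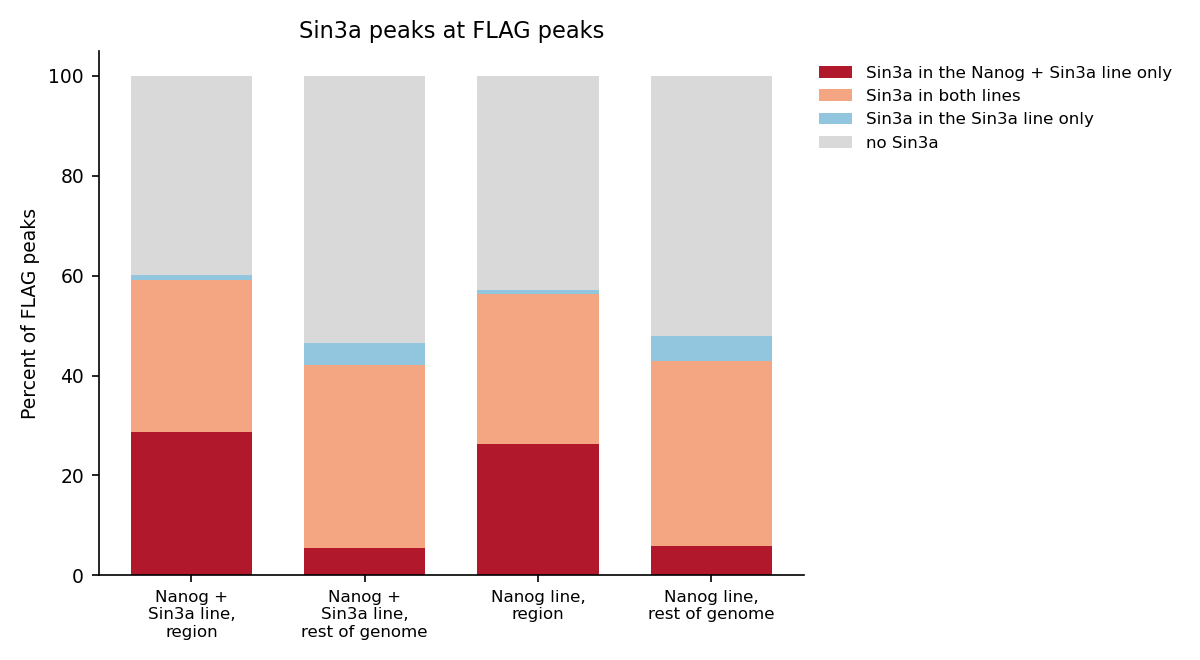
Percent of FLAG peaks by the Sin3a lists that overlap them (Nanog + Sin3a line only, both lines, Sin3a line only or neither), for the stretch (region) and the rest of the genome in each FLAG list. The lowest segment, Sin3a in the Nanog + Sin3a line only, is 28.6% in the stretch for FLAG in the Nanog + Sin3a line and 5.51% in the rest of the genome.

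FLAG peaks that had Sin3a in the Nanog + Sin3a line only were of intermediate strength. Their median FLAG fold in the Nanog + Sin3a line was 4.87, between 6.89 for FLAG peaks with Sin3a in both lines and 3.82 for those with no Sin3a. In the Nanog line the medians were 5.03, 7.67 and 3.91. Width followed the same order, with medians of 412, 658 and 268 bp in the Nanog + Sin3a line. Since a wider peak has more bases to share, strength and width were not separated. In the rest of the genome the FLAG fold in the Nanog + Sin3a line was 4.51, 5.50 and 4.36 in the same order of classes. FLAG peaks in the Nanog + Sin3a line were wider in the stretch than in the rest of the genome (medians 400 and 351 bp), and those of the Nanog line less so (368 and 358 bp). Their median folds were 4.74 in the stretch and in the rest of the genome for the Nanog + Sin3a line, and 4.75 in both for the Nanog line.

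The unmatched Sin3a peaks were weak. Their median fold was 3.61 and their median −log10 q was 4.36. Of the 167, 74 reached 5 (44.3%, beside 41.1% in the rest of the genome) and 16 reached 10 (9.58%, beside 3.73%). A median of 30 ChIP fragments lay over their summits, as recovered from fold and p-value. For matched peaks the medians were 6.04 for fold, 15.7 for −log10 q and 49 for fragments. Unmatched peaks of the rest of the genome had a median fold of 3.60 and a −log10 q of 4.85. In the stretch the median width was 306 bp for unmatched and 751.5 bp for matched peaks, beside 260 and 563 bp in the rest of the genome. Of the unmatched summits of the stretch, 94 of 167 (56.3%) lay within 10 kb of a Sin3a summit of the Sin3a line, beside 60.9% in the rest of the genome. The median distance was 8536 bp, beside 4621.5 bp.

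**Figure D4:**
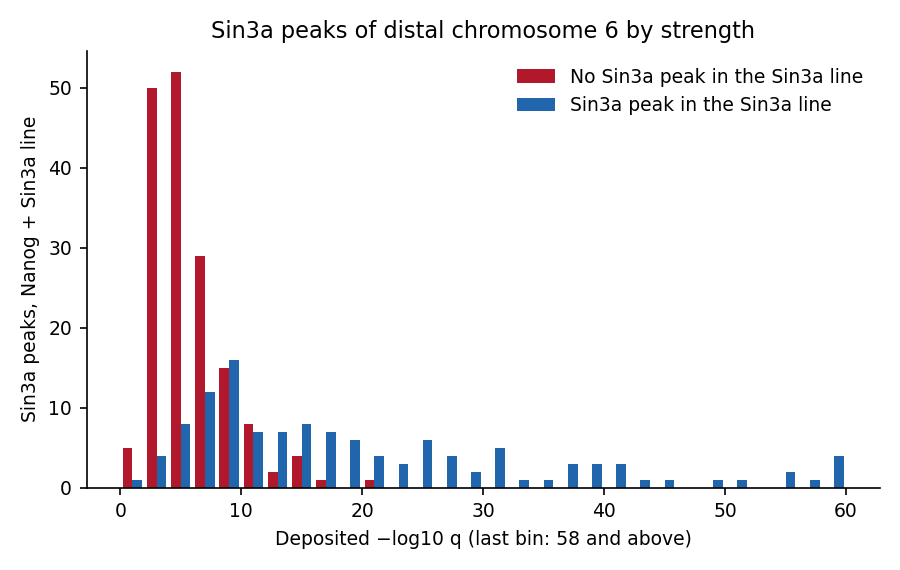
Number of Sin3a peaks of the Nanog + Sin3a line in the stretch by deposited −log10 q, in bins of 2, for peaks without (left bars) and with (right bars) a Sin3a peak of the Sin3a line at the same place. Peaks without one crowd below 10, where 151 of 167 lie, and those with one spread to 58 and above.

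Single sites show both kinds. The strongest unmatched Sin3a site, chr6:128291742-128292767, had a Sin3a fold of 7.31 in the Nanog + Sin3a line with 56 fragments over the summit (Poisson interval 42.3 to 72.7), ranking 2775 in its list, and no Sin3a peak in the Sin3a line. FLAG peaks lay there in both lines, with folds of 8.58 in the Nanog + Sin3a line and 5.36 in the Nanog line. The next Sin3a summit of the Sin3a line was 13159 bp away. The second, chr6:128235630-128236298, had a Sin3a fold of 6.42 and 49 fragments (36.3 to 64.8), and FLAG folds of 6.12 in the Nanog + Sin3a line and 8.08 in the Nanog line. The site chr6:129014402-129014920 lay 115864 bp from any Sin3a summit of the Sin3a line. It had a Sin3a fold of 6.04 with 46 fragments, and FLAG folds of 10.8 in the Nanog + Sin3a line and 10.6 in the Nanog line.

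The other 5 of the 8 strongest unmatched sites had Sin3a folds from 5.65 to 6.16. They lay at chr6:127097647-127098299, chr6:128264418-128265435, chr6:127298849-127299360, chr6:124451489-124451929 and chr6:124867934-124868583. All 8 sites carried a FLAG peak in both lines. Of the 8, 6 lay between 127 and 130 Mb. Of all 167 unmatched peaks, 23 lay at 127 to 128 Mb, 52 at 128 to 129 Mb and 33 at 129 to 130 Mb. The 6 sites thus do not show that the strongest unmatched peaks lay more distally than the others. The sites at 127298849 and 124867934 were 632 and 1078 bp from a Sin3a summit of the Sin3a line.

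The densest group of unmatched Sin3a peaks lay between 129 and 129.25 Mb. Here the Nanog + Sin3a line had 29 Sin3a peaks and the Sin3a line 2, while FLAG peaks numbered 33 in the Nanog + Sin3a line and 30 in the Nanog line. The 27 unmatched peaks had Sin3a folds from 2.48 to 6.04, with a median of 3.36 and 22 to 46 fragments over the summit. FLAG peaks lay at 21 of them in the Nanog + Sin3a line, with folds from 2.95 to 10.8 (median 5.25), and at 21 in the Nanog line, with folds from 3.38 to 10.9 (median 5.67). The 2 matched Sin3a peaks, chr6:129130410-129131188 and chr6:129187716-129188655, had folds of 4.75 and 4.66 in the Nanog + Sin3a line, and 4.15 and 3.43 in the Sin3a line. This interval was chosen after its values were seen.

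At sites with Sin3a in both lines, the Sin3a fold was also higher in the Nanog + Sin3a line. Over 120 pairs of peaks that were each other's best overlap, the median fold was 6.04 in the Nanog + Sin3a line and 4.61 in the Sin3a line. The median ratio was 1.24 (interval of the median 1.15 to 1.28), beside 0.996 at 13873 pairs in the rest of the genome. The ratio was above 1 at 98 of 120 pairs (81.7%), beside 49.2%. At least 1.5-fold higher were 24 of the 120 (20.0%), beside a background of 3.64% of all pairs, and 1 was at least 1.5-fold lower, beside a background of 3.85%. The scaled ChIP pileup itself, without division by the background, gave a median ratio of 1.14 in the stretch and 0.938 in the rest of the genome.

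FLAG at shared sites showed no such shift. Over 311 pairs the median FLAG fold was 5.25 in the Nanog + Sin3a line and 5.67 in the Nanog line, and the median ratio was 0.923 (0.885 to 0.949), beside 0.910 at 27502 pairs in the rest of the genome. At least 1.5-fold higher were 11 pairs (3.54%), beside a background of 5.22%, and at least 1.5-fold lower were 26 (8.36%), beside a background of 8.6%. The difference between the antibodies was not tested.

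The Sin3a ratio at shared sites varied along the stretch. It had a median of 1.02 over 15 pairs at 120 to 121 Mb, 1.19 over 26 at 124 to 125 Mb and 1.16 over 33 at 125 to 126 Mb. At 128 to 129 Mb it was 1.57 over 20 pairs, of which 19 had a ratio above 1 and 12 were at least 1.5-fold higher. The 3 pairs at 129 to 130 Mb had ratios from 1.15 to 1.36. The window with the most unmatched Sin3a peaks, 52 of the 167, was also the one with the highest median among windows of at least 5 pairs. The FLAG median in that window was 0.942 over 73 pairs. It was 1.14 over 23 pairs in the window at 127 to 128 Mb.

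**Figure D5:**
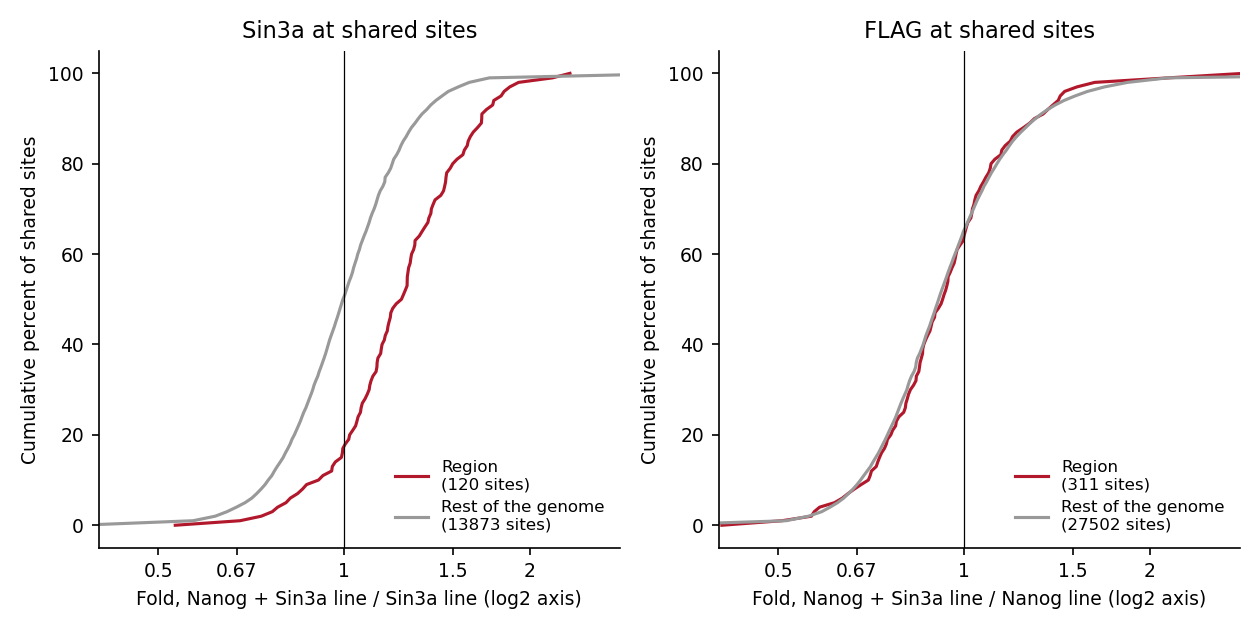
Cumulative percent of shared sites by the ratio of the deposited fold between lines (log2 axis), for Sin3a (left) and FLAG (right), in the stretch (Region) and in the rest of the genome. The Sin3a curve of the stretch lies to the right of that of the rest of the genome, with medians of 1.24 and 0.996, while the FLAG curves, with medians of 0.923 and 0.910, run together.

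The strongest shared site, chr6:126888951-126890978, had a Sin3a fold of 20.1 in the Nanog + Sin3a line with 157 fragments (133 to 184), and 10.4 in the Sin3a line with 132 fragments (110 to 157). It ranked 18 in the Nanog + Sin3a list and 275 in that of the Sin3a line, and its FLAG folds were 11.9 in the Nanog + Sin3a line and 12.1 in the Nanog line. Fragment numbers are given before scaling, so they do not compare lists. A fold also depends on the expected background of its list at the site, so a ratio of folds is not one of ChIP signal alone. The site chr6:124758638-124760351 had Sin3a folds of 14.5 in the Nanog + Sin3a line and 9.22 in the Sin3a line, with FLAG folds of 6.87 in the Nanog + Sin3a line and 9.03 in the Nanog line. The ratio varied among the other strong shared sites. The site chr6:125081249-125082833 had folds of 14.2 in the Nanog + Sin3a line and 12.8 in the Sin3a line. The site chr6:124958306-124959104 had 12.2 in the Nanog + Sin3a line and 12.3 in the Sin3a line. The site chr6:124778066-124780852 had 11.6 in the Nanog + Sin3a line and 11.1 in the Sin3a line, and it carried the highest FLAG folds of the stretch's named sites, 22.4 in the Nanog + Sin3a line and 26.4 in the Nanog line. The site chr6:121423055-121423508 had Sin3a folds of 14.6 in the Nanog + Sin3a line and 11.5 in the Sin3a line.

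Merged sites with Sin3a in the Sin3a line only were few and weak. There were 6, or 1.19% of the 504 merged sites of the stretch, beside 5.50% of 45707 in the genome. The one with the highest −log10 q, chr6:125304689-125305294, had a Sin3a fold of 3.72 with 35 fragments (24.4 to 48.7). FLAG peaks lay there with folds of 3.74 in the Nanog + Sin3a line and 5.35 in the Nanog line. The next, chr6:124959635-124959945, had a Sin3a fold of 3.77 and no FLAG peak.

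Merging the 4 lists by at least 1 shared base gave 504 sites. Sites with Sin3a in the Nanog + Sin3a line only numbered 149, or 29.6%, beside 7.04% in the genome, and sites with Sin3a in both lines numbered 117, or 23.2% beside 30.0%. The order of these groups depends on weak peaks. With all 4 lists cut at a −log10 q of 5 before merging, 86 sites had Sin3a in the Nanog + Sin3a line only and 90 in both lines. With a cut at 10 there were 37 (15.3%, beside 5.45% in the genome) and 56 (23.1%, beside 30.5%). After such a cut, a site of the first group can still hold a weaker Sin3a peak of the Sin3a line. Of the 167 peaks unmatched in the uncut lists, 74 reached 5 and 16 reached 10. The class with FLAG in both lines and Sin3a in the Nanog + Sin3a line alone made up 17.5% of sites (88), beside 3.65% in the genome. Sites with FLAG in both lines and no Sin3a numbered 99, or 19.6%, beside 26.9%. Sites of all 4 lists numbered 109, or 21.6%, beside 25.7%. Sites with Sin3a in the Nanog + Sin3a line and no other peak numbered 35, or 6.94%, beside 2.03%.

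Among sites with FLAG and no Sin3a, single sites differed between lines in either direction. At chr6:127416815-127417382 the FLAG fold was 17.3 in the Nanog + Sin3a line with 140 fragments (118 to 165), and 6.09 in the Nanog line with 48 (35.4 to 63.6). At chr6:121441437-121441907 it was 11.1 in the Nanog + Sin3a line and 5.08 in the Nanog line. At chr6:128239938-128240397 it was 6.10 in the Nanog + Sin3a line and 10.7 in the Nanog line, and at chr6:124996634-124997190 it was 5.37 in the Nanog + Sin3a line and 5.51 in the Nanog line. Sites where FLAG in the Nanog + Sin3a line was the only peak numbered 49 (9.72% of merged sites, beside 14.5% in the genome), with a fold of 6.01 at the strongest (chr6:120180455-120180817). Sites where FLAG in the Nanog line was the only peak numbered 84 (16.7%, beside 16.0%), with a fold of 6.03 at the strongest (chr6:124427816-124428725).

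The expected background recovered at the summits was less often at its lowest level in the stretch than elsewhere in all 4 lists. It was at this floor at 47.7% of Sin3a peaks of the stretch in the Nanog + Sin3a line, beside 57.0% in the rest of the genome. In the Sin3a line it was so at 44.3%, beside 53.8%. For FLAG the shares were 41.6% and 48.3% in the Nanog + Sin3a line, and 39.0% and 48.5% in the Nanog line. The median background differed more between the Sin3a lists. It was 5.85 in the stretch and 5.41 in the rest of the genome for Sin3a peaks of the Sin3a line, and 5.07 and 5.05 for those of the Nanog + Sin3a line. For FLAG it was 5 and 4.78 in the Nanog + Sin3a line, and 4.996 and 4.71 in the Nanog line. The part of this background in the numbers of peaks and in the folds was not tested.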

How the data were processed

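Peak lists of 4 ChIP groups (2 replicates each) were used, and the input and IgG libraries were not used here. Per the submitters' processing notes, the build was mm9 and the tools were Bowtie 1.0.0, SAMtools 0.1.19 and FastQC 0.10.1, with no role given. The peak caller, and whether replicates were pooled, are details not given in the sources used here. The authors deposited for each peak a score, a fold (ratio of ChIP pileup to expected background at the summit), a −log10 p-value, a −log10 q-value and the summit. The deposited score equals 10 times the −log10 q without decimals in 100% of rows.

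Peaks overlapped when they shared at least 1 base. No peaks of 1 list overlapped each other. Fragments over a summit were the whole numbers that return the deposited fold and p-value, unique for at least 99.5% of peaks per list. The recovery and the overlaps were tested on simulated data. Total reads are unknown. Intervals are exact Poisson (counts), exact conditional binomial (ratios of counts), Wilson (shares) and order-statistic (medians). No test was run, since each group has 1 list. The genome background of a count is the share of all windows, peaks or pairs past the same threshold. Named sites were those with the highest −log10 q of each class of merged sites (8 unmatched, 6 shared, 4 of the Sin3a line only, 4 of FLAG in both lines, 3 of FLAG in each line alone). The stretch, its rule and the classes were chosen with earlier results of these data known. Coordinates are 1-based. The gene table is of GRCm38 and was used for gene order only. Versions were SciPy 1.17.1, pandas 2.3.3, NumPy 2.4.6, Matplotlib 3.10.9 and Python 3.11.15.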

Additional observations from a re-analysis of the deposited data

Results flagged for a closer look

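These values were picked out because the ratio between lines lay above 1 for Sin3a and below 1 for FLAG in the stretch. The ratio of peak numbers, Nanog + Sin3a line over single-transgene line, was 2.06 for Sin3a and 0.871 for FLAG, and the median ratio of folds at shared sites was 1.24 for Sin3a and 0.923 for FLAG. In the rest of the genome the ratios of peak numbers were 1.05 for Sin3a and 0.944 for FLAG, and those of folds 0.996 and 0.910, so FLAG in the stretch lay close to its level elsewhere. Each value compares 1 list with 1 other list, and the difference between the antibodies was not tested. The stretch was picked by the first pair of values, and the second pair comes from the same lists, so neither pair is independent support.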

How the results depend on the processing

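No paired analysis was possible because the deposited lists give each peak once for both replicates, which also meant that no replicate could be left out. The ratios of peak numbers and of folds kept their side of 1 in all alternatives run, but statements on majorities did not. The Sin3a ratio of peak numbers (2.06) was 1.54 at a −log10 q of 10 or more, outside its counting interval, and from 1.85 to 2.35 with each 1-Mb window left out, and the FLAG ratio from 0.854 to 0.902. Windows with more Sin3a peaks (5) numbered 8 at a lower threshold of fold and 3 at 2-fold. For FLAG (0) there was 1 at the lower threshold.

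Shares moved with the overlap rule, and those of Sin3a peaks with a counterpart (42.2%) and of unmatched peaks at FLAG (67.7%) crossed 50%. With summits within 200 bp, counterparts fell to 76.4% (Sin3a line), 74.5% (FLAG, Nanog + Sin3a line) and 64.9% (FLAG, Nanog line), and Sin3a at FLAG to 58.5% (Nanog + Sin3a line), 79.3% (single-transgene lines) and 49.1% (unmatched peaks). With peaks within 1 kb, counterparts were 56.4% (Sin3a, Nanog + Sin3a line), 91.7% and 84.6% (FLAG, Nanog + Sin3a and Nanog lines), and Sin3a at FLAG was 90.7%, 99.3% and 86.8%. Restricted to a −log10 q from 5 up, peaks had counterparts at 60.4% and 97.2% (Sin3a, Nanog + Sin3a and Sin3a lines) and at 92.9% and 84.8% (FLAG, Nanog + Sin3a and Nanog lines). The ratio at shared sites was 1.41 for Sin3a and 0.868 for FLAG with −log10 q in place of fold. In alternatives chosen after the data were seen, sites with Sin3a in the Nanog + Sin3a line only made up 23.6% (−log10 q from 5 up) and 15.3% (from 10 up) of merged sites in place of 29.6%. In addition, 6 of the 8 named unmatched sites stayed unmatched within 1 kb. The other 55 values stayed within the counting interval or within 1.5 times the count. Unmatched Sin3a peaks rest on a median of 30 fragments, so their presence or absence in a list is sensitive to its depth and threshold, and absence of a peak does not show absence of binding. The cause of the shifts was not tested.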
